A study of Homo sapiens with 8 samples.

Results

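Chromatin accessibility was examined at the stretch of chromosome 9 that carries JAK2, CD274 and PDCD1LG2, from 4.95 to 5.62 Mb (hg19), in H1650 cells, an established line of non-small cell lung cancer. The window was fixed by position alone, and its members were the regions that overlapped it after the peaks of all 8 libraries had been merged wherever they overlapped or touched. This gave 20 regions of 46665 over the genome (0.0429%) and of 2074 on chromosome 9 (0.964%). The assay was ATAC-seq, in which a transposase inserts adapters into accessible DNA, and the deposited files were lists of peaks, 1 per library. The question behind the study was how loss of hMENA, an actin regulator encoded by ENAH, or of its epithelial isoform hMENA11a bears on type I interferon signalling and on resistance to checkpoint blockade. There were 4 groups with 2 libraries each. They were untreated cells, cells given a non-targeting siRNA pool (siControl), cells given a mix of siRNAs against exon 11a (siMena11a), and cells given an siRNA pool against hMENA in all its forms (siMena). Each transfected group received siRNA at 20 nmol/L with the same lipid reagent, which untreated cells did not receive. The time from transfection to harvest was not given in the sources used here. All groups are 1 cell line, and nothing in the labels says whether replicates were separate cultures, so every p-value below measures only the spread between these libraries. An siRNA acts on mRNA, so peaks at ENAH would not check the knockdown, and marker genes of the cell line were not analysed here.

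PD-L1, the product of CD274, and PD-L2, the product of PDCD1LG2, are surface ligands of PD-1, a receptor that restrains T cells, and PD-L1 is the target of widely used checkpoint antibodies. JAK2 is a tyrosine kinase that sits on the interferon gamma receptor, among others, and passes its signal on by phosphorylation. Signalling through this receptor induces CD274, so that interferon gamma from T cells raises PD-L1 on tumour cells. The kinase and both ligands thus belong to 1 pathway and also lie side by side on 9p, where they can be amplified together.

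The bases before the CD274 start hold matches to motifs of interferon response genes. They are shown here because the CD274 start region below was listed by some libraries and not by others. Whether the matches are bound, or bear on the listing, was not tested. The JAK2 sequence is shown for contrast, as the promoter of the gene whose start every library listed. RefSeq promoter windows (GRCh38.p14) matched 2 of the 3 genes, CD274 with 1 window and JAK2 with 4. PDCD1LG2 had no entry. The 250 bases before each start are printed, 5′ to 3′ on the plus strand, with matches to the motifs GAS and ISRE in capitals. Their GRCh38 positions, chr9:5450292-5450541 for CD274 and chr9:4984836-4985085 for the JAK2 window with the most CpG dinucleotides, were not converted to hg19, the build of the peaks. They were therefore not set against the peaks.
CD274: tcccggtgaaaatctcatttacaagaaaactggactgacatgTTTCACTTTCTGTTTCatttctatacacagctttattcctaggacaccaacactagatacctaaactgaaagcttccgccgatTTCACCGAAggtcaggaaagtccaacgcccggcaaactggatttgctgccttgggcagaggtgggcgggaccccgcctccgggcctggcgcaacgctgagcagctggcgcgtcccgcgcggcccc
JAK2: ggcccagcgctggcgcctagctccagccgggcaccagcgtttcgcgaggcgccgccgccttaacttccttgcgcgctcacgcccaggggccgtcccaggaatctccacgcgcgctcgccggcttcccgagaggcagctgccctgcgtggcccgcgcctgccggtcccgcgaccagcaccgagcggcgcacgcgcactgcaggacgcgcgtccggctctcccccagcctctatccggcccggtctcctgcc

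The capitals in CD274 mark 2 overlapping matches, on the minus strand, to the interferon-stimulated response element (GAAA, any 2 bases, GAAA), which is bound by IRF proteins. They span bases -208 to -193 counted from the start. The other capitals mark 1 match to the gamma-activated site TTCNNNGAA, an element of interferon gamma response genes, at -125 to -117. Over 35116 promoter windows of the same length, 3.02% held the first motif and 6.57% the second, on either strand. None of the 4 JAK2 windows held a match to these motifs, which says only that these letters are not in these windows. The JAK2 window printed, chosen for its CpG count, had a GC content of 75.6% and 36 CpG dinucleotides, and the CD274 window had 54.8% and 16. The other JAK2 windows had 48.4% and 8, 68.4% and 22, and 58.4% and 10, on both sides of CD274. The median over all windows was 58.0% and 11. A GC box (GGGCGG), a motif found in 42.6% of windows, matched CD274 and 1 other JAK2 window. A match to the NF-kB motif searched (GGGA, any 4 bases, CC), found in 22.6% of windows, lay in the CD274 and in the printed JAK2 window. TGANTCA (AP-1), CCAAT and TATAAA, present in 6.57%, 32.0% and 10.7% of windows, matched neither gene.

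Each peak carries a fold, the authors' value, which is the tags over its summit divided by the local background, with 1 added to both. The summit of highest fold stands for a region. Libraries differed in depth and in list length. The genome-wide background ran from 0.538 to 2.88 tags per position, the lists from 1020 to 35472 peaks, and the median fold at the 501 regions on assembled chromosomes listed by all 8 libraries from 4.59 to 11.7. The longest lists were those of replicate 1 of untreated and siMena11a, and the shortest those of replicate 2 of siControl, siMena11a and siMena. Folds were therefore also divided by the library's own median at those 501 regions, which is called the relative fold. To show what a list could hold, the lowest fold listed at the genome-wide background was taken from each library. It ran from 3.61 to 4.13, or 5 to 13 tags, and the narrowest peak of every list was 200 bp.

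Of the 20 regions, 1 lay at the JAK2 start, 4 in the body of JAK2, 6 between JAK2 and CD274, 1 at the CD274 start and 1 between CD274 and PDCD1LG2. Another 1 lay at the PDCD1LG2 start, 2 in its body and 4 beyond it. Gene starts and ends were known to the nearest kb, a region within 2 kb of a start was assigned to it, and exons and introns could not be told apart. No region lay in the body of CD274 beyond its start region. The regions had a median width of 365 bp (200 to 1329), against 394 bp over all regions. There were 29.9 regions per Mb in the window and 14.7 per Mb on chromosome 9 between its first and last region. Only the JAK2 start was listed by all 8 libraries (1.16% of all regions were), 8 regions (40.0%, against 31.2% of all regions) were listed by 1 library, and 8 by 4 or more.

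**Figure D1:**
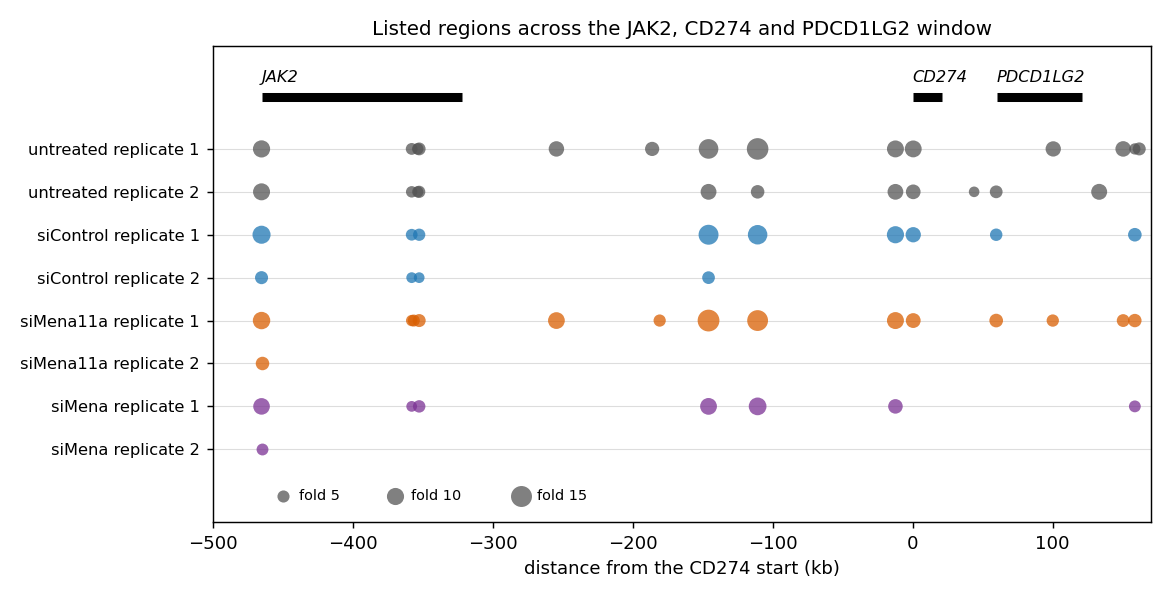
Position of every listed region, as distance from the CD274 start in kb (horizontal), in each of the 8 libraries (rows), with the area of a point proportional to the deposited fold and black bars for the 3 gene bodies. The JAK2 start is present in all 8 rows, the CD274 start in 4, and replicate 2 of siMena11a and of siMena hold 1 point each.

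The JAK2 start was the only site of the locus that all 8 libraries listed. Relative to each library, the fold at the strongest summit there varied little. The region ran from 4984352 to 4985680 and held a pair of summits in 7 of the 8 libraries. The last lay between 4985130 and 4985224, and the gap to the one before it was 310 to 435 bp. Replicate 2 of siMena listed 1 summit. Untreated replicate 1 had an added, weaker summit with a fold of 4.22. The fold was 10.1 and 9.84 for the untreated libraries, replicate 1 first, then 11.1 and 5.81 for siControl, 10.3 and 6.23 for siMena11a, and 9.39 and 4.80 for siMena. The summits behind these folds held 61 and 47 tags (untreated), 69 and 29 (siControl), 82 and 31 (siMena11a) and 36 and 21 (siMena). They were not all the same summit. For replicate 2 of siControl and of siMena it was an earlier one, at 4984789 and 4984808, and elsewhere the last. At the earlier summit the folds, in the same order, were 7.95 and 9.68, 11.1 and 5.81, 8.44 and 6.13, and 6.57 and 4.80. Relative folds at the earlier summit were not computed. The 3 transfected replicate 2 libraries were the low ones, and untreated replicate 2 stayed with the replicate 1 libraries. Within its own list, the JAK2 start outranked by −log10 q between 95.8% and 99.3% of peaks in the 5 libraries with the longest lists, and 80.3%, 87.2% and 47.6% for replicate 2 of siControl, siMena11a and siMena.

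Set against the median of each library, the strongest summit of the JAK2 start differed little in fold between groups. That summit was the earlier one in replicate 2 of siControl and of siMena. The lowest fold listed at the genome-wide background was 0.787 of that median in siMena replicate 2 and 0.650 in siMena11a replicate 2. This narrows how far below the median a listed region could lie there. Replicate 1 first, the log2 relative fold of the JAK2 start was -0.22 and -0.04 for untreated cells, 0.06 and -0.22 for siControl, -0.07 and 0.14 for siMena11a, and 0.03 and 0.07 for siMena. The groups ordered as siMena (0.05 ± 0.03, SD, n = 2), siMena11a (0.04 ± 0.15), siControl (-0.08 ± 0.20) and untreated (-0.13 ± 0.13). Neighbours in this order overlapped in their values. The siMena and untreated libraries, the ends of the order, did not, and that pair was not among the comparisons made. The siMena11a minus siControl difference was 0.12 on the log2 scale (two-sided exact permutation p = 0.667). It was -0.12 within replicate 1 and 0.36 within replicate 2. For siMena minus siControl it was 0.13 (exact permutation p = 0.667), with -0.03 and 0.29 within the replicate numbers. For siControl minus untreated it was 0.05 (exact permutation p = 1), with 0.28 and -0.19, and for siMena11a minus siMena -0.01 (exact permutation p = 1), with -0.09 and 0.08. With 2 libraries against 2 the smallest p is 0.333. Both knockdowns minus both controls, 4 libraries against 4, gave 0.15 (exact permutation p = 0.171, smallest possible 0.0286), with 0.06 and 0.23. The direction of each of these differences other than siMena11a minus siControl turned with the unscaled fold and with tags over the genome-wide background, and that one with the unscaled fold. Relative folds of the compared groups did not overlap in 22.7%, 26.3%, 31.1%, 22.1% and 2.58% of the regions listed by all libraries of these 5 comparisons, in the order given. The JAK2 start was in none of these counts.

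**Figure D2:**
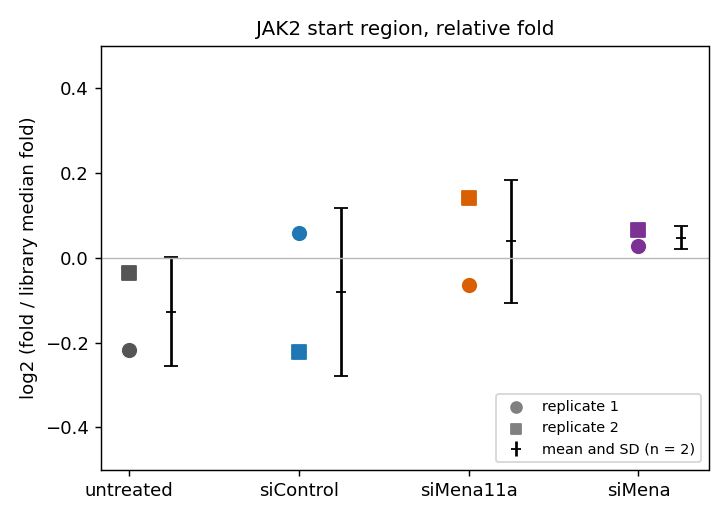
Log2 relative fold at the JAK2 start (vertical) in the 4 groups, with circles for replicate 1, squares for replicate 2 and black marks for the mean with its SD (n = 2). The values lie between -0.22 and 0.14, and neighbouring groups overlap.

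The body of JAK2 held a second open stretch, 107 to 113 kb after its start. The regions from 5092075 to 5092474 and from 5097411 to 5097827 were listed by the same 6 libraries, all but replicate 2 of siMena11a and siMena. At the first the untreated folds were 4.77 and 4.48, the siControl folds 4.70 and 3.97, and replicate 1 of siMena11a and of siMena had 4.42 and 3.95. At the second the untreated folds were 5.62 and 5.09, the siControl folds 5.14 and 3.93, and replicate 1 of siMena11a and of siMena had 5.76 and 5.30. Across both regions and the 6 libraries the fold lay between 3.93 and 5.76, below that of the JAK2 start in each library. The summits held 19 to 36 tags over a high local background, by which the fold is divided. That background was 4.06 to 5.88 tags per position at both regions, or 2.12 to 10.4 times the genome-wide background, and exceeded that of 78.2% to 98.4% of all summits of the library. The JAK2 start, with its higher folds, had a local background of 2.94 to 7.02 tags per position over the 8 libraries. Relative folds at both body regions were below the library median, from -1.30 to -0.77 on the log2 scale. The cause was not tested. The strongest summit of the second region moved by at most 43 bp between libraries. The same set of 6 libraries was the listing set of 1950 regions over the genome (4.18%).

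Between these lay the region from 5096471 to 5096687, listed by both untreated libraries and by no transfected one. Its fold was 4.51 in replicate 1 and 4.33 in replicate 2, each with 33 tags, and its summits were 1 bp apart. It was the 1 region of the locus lost in siControl against untreated, lost meaning listed in both libraries of the second group and in neither of the first. Over the genome 3.65% of regions were lost in that comparison and 0.12% gained, so 1 of 20 is near the background. With the lists shortened to the length of the shortest it was not called. The region from 5093668 to 5093867 was listed by siMena11a replicate 1 alone, with a fold of 4.90.

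CD274 was listed as open at its start in 4 of the 8 libraries. The region ran from 5450268 to 5450768, within 1 kb of the start. Its fold was 9.71 and 7.35 in the untreated libraries, and replicate 1 of siControl and of siMena11a had 7.99 and 7.50, over summits of 26, 24, 22 and 29 tags. Neither siMena library listed it, nor did replicate 2 of siControl or siMena11a. In the lists that held it, it outranked 82.3%, 72.2%, 70.2% and 73.0% of peaks by −log10 q, in the same order. The strongest summits lay between 5450498 and 5450565, 67 bp apart. The untreated libraries had a log2 relative fold of -0.27 and -0.46, siControl replicate 1 of -0.42 and siMena11a replicate 1 of -0.53. The siControl and siMena11a values thus differed by less than the 2 untreated replicates did.

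The absence of CD274 from siMena replicate 1 set that library apart from the other replicate 1 libraries. At the local background seen in the other libraries, 2.01 to 3.41 times the genome-wide one, a summit of 8 to 11 tags, a fold of 3.66 to 3.46, would have reached the lowest −log10 p of that list. In units of the library median this is 0.398 to 0.376, against 0.693 to 0.830 in the 4 libraries that listed the region. The other libraries that did not list it also had limits below those values. In the same units they were 0.451 to 0.389 in siControl replicate 2 and 0.551 to 0.458 in siMena11a replicate 2. In siMena replicate 2 the limit was 0.675 to 0.565. A listed peak was also at least 200 bp wide, so these are not strict upper limits. The 4 libraries that listed the CD274 start, and no other, were the listing set of 4029 regions over the genome (8.63%). At least these 4 listed 15319 regions. Of those 15319, siMena replicate 1 listed 70.8%, and siMena replicate 2, siControl replicate 2 and siMena11a replicate 2 listed 3.98%, 28.4% and 15.1%. Of the 6502 regions on assembled chromosomes with a fold from 7 to 9 in siControl replicate 1, a range chosen after the CD274 values were seen, siMena replicate 1 listed 66.4%. Of 8503 such regions in siMena11a replicate 1 it listed 53.3%. Many regions of similar fold were thus also absent from that list. In siMena replicate 2, whose list holds 1020 peaks, 1.68% of the 6502 regions were present, and in siControl replicate 2 21.2%. The region was neither gained nor lost in a comparison, since siControl and siMena11a each had 1 library that listed it and 1 that did not. With siControl replicate 2 set aside it would be 1 of 2 regions lost in siMena against siControl, the other being that at the PDCD1LG2 start. The share of all regions lost in that setting was not computed, so this count has no background beside it. The treatment and the shorter siMena lists cannot be told apart. In bulk cells, a change in every cell and a change in a fraction of cells also cannot be told apart.

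**Figure D3:**
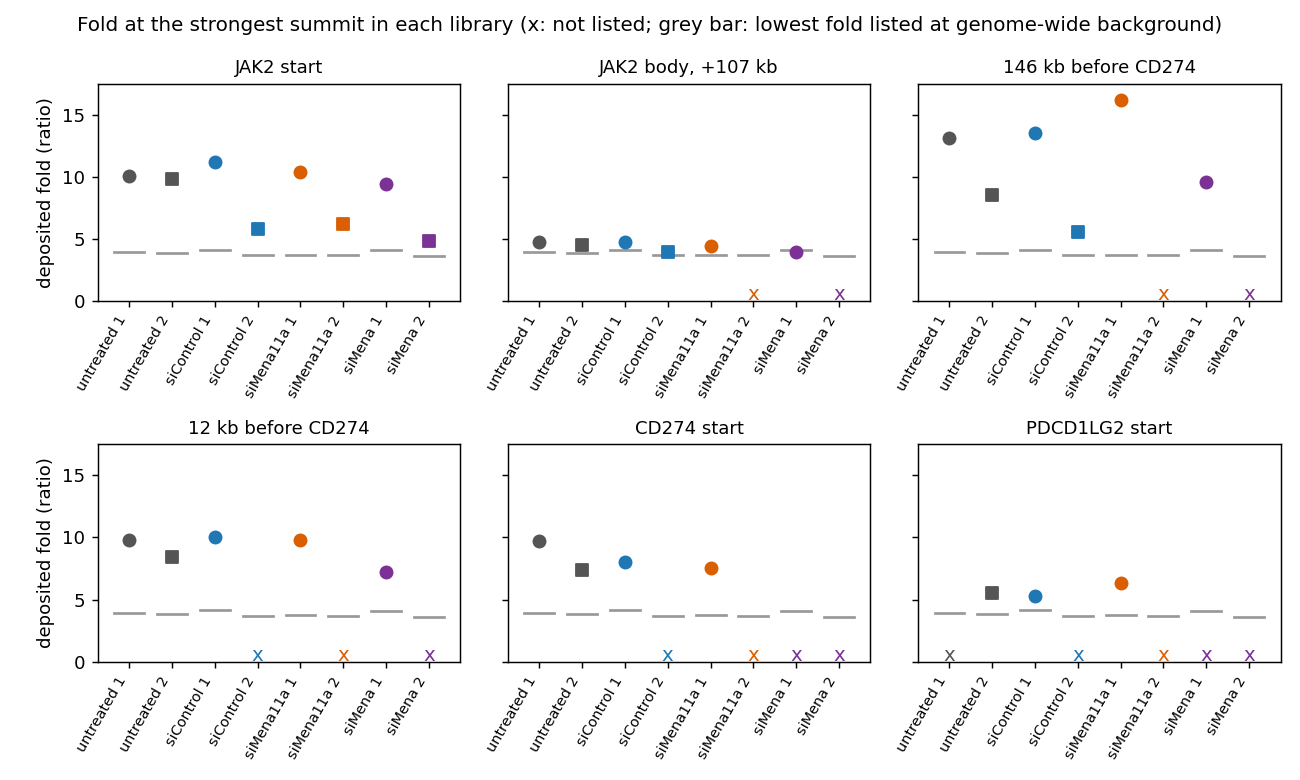
Deposited fold at the strongest summit (vertical) in the 8 libraries (horizontal; circles, replicate 1; squares, replicate 2) at 6 regions, with a coloured x where a library did not list the region and a grey bar at the lowest fold it listed at the genome-wide background. The JAK2 start is listed throughout, the CD274 start in 4 libraries with folds of 7.35 to 9.71, and the PDCD1LG2 start in 3 with folds of 5.28 to 6.36.

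PDCD1LG2 had the weakest start region of the 3 genes. The region from 5509571 to 5509988 lay within 1 kb of the start. Untreated replicate 2 listed it with a fold of 5.56, siControl replicate 1 with 5.28 and siMena11a replicate 1 with 6.36, over 14, 12 and 14 tags. Untreated replicate 1, both siMena libraries and replicate 2 of siControl and siMena11a did not list it. Its log2 relative fold was -0.86, -1.02 and -0.77, below that of CD274 in each of the 3 libraries. In untreated replicate 1, the longer list of that group, a summit of 6 tags, a fold of 3.82 to 3.80, would have reached the lowest −log10 p at the local background seen in the other libraries. This set of 3 libraries was the listing set of 374 regions (0.801% of all). In the body of PDCD1LG2, 40 and 41 kb after its start, siMena11a replicate 1 listed a region from 5550041 to 5550340 with a fold of 5.17. Untreated replicate 1 listed a separate one from 5550367 to 5550698 with a fold of 8.0. The stretch between CD274 and PDCD1LG2 held 1 region, from 5493859 to 5494171, in untreated replicate 2 alone, with a fold of 3.83, the lowest that list held at the genome-wide background.

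In each replicate 1 library the highest fold of the locus was not at the 3 genes but between JAK2 and CD274, whereas in each replicate 2 library it was at the JAK2 start. In the RefSeq gene order INSL6, INSL4, RLN2, RLN1 and PLGRKT lie there, relaxin family hormones and a plasminogen receptor, and which of them a region belongs to was not analysed here. The region from 5303918 to 5304701, 146 kb before the CD274 start, had folds of 13.1 and 8.54 in the untreated and 13.5 and 5.51 in the siControl libraries. Replicate 1 of siMena11a had 16.2 and that of siMena 9.60, and their replicate 2 libraries did not list it. The fold in siMena11a replicate 1 was higher than that of 99.9% of the peaks in its list. The region from 5339070 to 5339660, 111 kb before CD274, had folds of 15.9 and 6.25 in the untreated libraries. Replicate 1 of siControl had 12.96, that of siMena11a 14.8 and that of siMena 10.7, and their replicate 2 libraries did not list it. Untreated replicate 2, which stayed close to replicate 1 at the JAK2 start, was the low library here. The log2 relative fold ran from -0.30 to 0.58 at the first region and from -0.69 to 0.45 at the second.

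The region from 5437508 to 5438111, 12 kb before the CD274 start, gives the nearest comparison for CD274. Its untreated folds were 9.79 and 8.47, and replicate 1 of siControl, siMena11a and siMena had 10.0, 9.81 and 7.23. The siMena replicate 1 fold was the lowest of the 5, with a log2 relative fold of -0.35 against -0.26 to -0.09 in the others. Unlike the CD274 start, it was listed there. Its set of 5 libraries was also that of the region 111 kb before CD274 and of 6610 regions in all (14.2%).

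Beyond PDCD1LG2, the region from 5608621 to 5609018 was the 1 listed by all 4 replicate 1 libraries and by no replicate 2 library. Its fold was 4.33 (untreated), 6.30 (siControl), 6.12 (siMena11a) and 4.79 (siMena). Regions from 5195497 to 5195799 (folds of 8.13 and 9.57) and from 5600163 to 5600816 (8.24 and 5.61) were listed by untreated replicate 1 and siMena11a replicate 1, the libraries with the longest lists. The remaining 4 regions, each in 1 library, had folds from 5.10 to 8.66. Untreated libraries listed 17 of the 20 regions, and the share of all regions that they listed was not computed. The 3 that only transfected libraries held were in siMena11a replicate 1 alone, with folds of 4.90 to 5.17. Over the genome 5199 regions (11.1%) were listed by that library alone, so 3 of 20 is near the background.

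Across the locus, no region was called gained or lost with the knockdowns. A gained region had to be in both libraries of a group. Replicate 2 of siMena11a and of siMena each listed 1 region, the JAK2 start, which every library listed. No gain over siControl could therefore be called, nor either direction for siMena11a against siMena. For siMena11a against siControl the count was 0 gained and 0 lost of 20 regions, where 0.0279% and 0.0557% of all regions were called. For siMena against siControl it was 0 and 0, against 0.00214% and 1.03%, and for siMena11a against siMena 0 and 0, against 0.24% and 0.00643%. Shares of that size come to less than 1 region of 20, so the counts of 0 are near the background. Setting aside 1 library moved some of these counts, which are given with the alternatives. The share of all regions called was not computed for any alternative, so the counts given there have no background beside them. In these 3 comparisons only the JAK2 start was listed by all 4 libraries. A region has no test of its own here.

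Replicate 1 first, the untreated libraries listed 14 and 11 of the regions, siControl 9 and 4, siMena11a 14 and 1, and siMena 7 and 1. The untreated counts lay above both siControl counts, and those of siMena11a spanned the others. The difference in the mean was 1 for siMena11a minus siControl (exact permutation p = 1), with 5 within replicate 1 and -3 within replicate 2. It was -2.5 for siMena minus siControl (exact permutation p = 0.667), with -2 and -3, and -6 for siControl minus untreated (exact permutation p = 0.333), with -5 and -7. For siMena11a minus siMena it was 3.5 (exact permutation p = 1), with 7 and 0, and for both knockdowns minus both controls -3.75 (exact permutation p = 0.4), with -1 and -6.5. None of these two-sided tests passed 0.05, and for siControl minus untreated, where the counts did not overlap, 0.333 is the smallest p possible. As a share of each list the locus held from 0.034% of regions in siControl replicate 1 (95% Clopper-Pearson interval 0.0156 to 0.0646%) to 0.100% in siMena replicate 2 (0.00254 to 0.558%). These intervals cover counting error only and overlap in all 8 libraries.

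**Figure D4:**
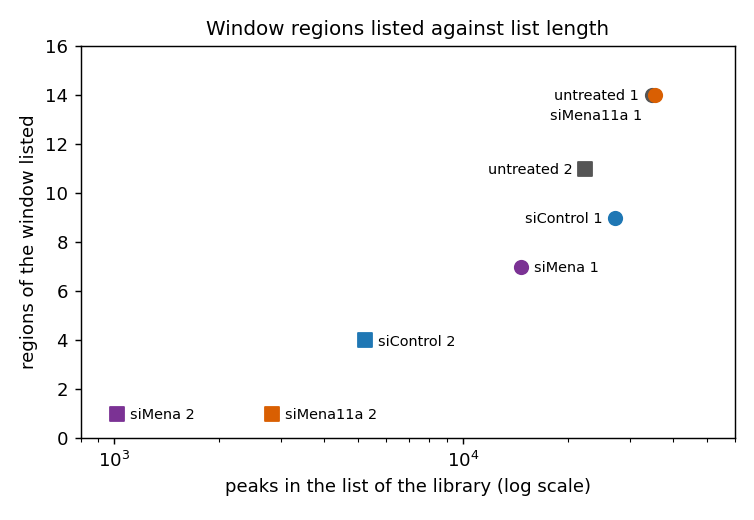
Number of the 20 regions listed (vertical) against the number of peaks in the list (horizontal, log scale), 1 point per library, with circles for replicate 1 and squares for replicate 2. Short lists hold few regions of the locus, from 1 in a list of 1020 peaks to 14 in lists of 34782 and 35472.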

How the data were processed

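The deposited files are ATAC-seq peak lists, 1 per library, with no pooling of replicates. The labels name total RNA as the molecule and describe RNA extraction beside ATAC-seq. The submitters' processing notes name hg19 and, in no order, MACS2 2.2.5, SAMtools 1.7, Bowtie2 2.3.4.2 and FastQC 0.11.5. Trimming, duplicate removal, the transposase shift and any control are not given in the sources used here. Per the values, the deposited score is 10 times the −log10 q, rounded down. The fold ratio, −log10 p and −log10 q are the authors' values at each summit, and every list ends just above a −log10 q of 2.

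Peaks were merged into regions, and a library listed a region that a peak overlapped by at least 1 bp. Tags and local background were recovered from fold and −log10 p (within 0.001 for 100% of summits), and the commonest local background was taken as genome-wide. The code was checked on simulated data. Groups were compared by exact permutation over libraries. Values are printed in every library for regions within 2 kb of a start, in 4 or more libraries, or gained or lost, and some others were added after their values were seen. Alternatives were a −log10 q of at least 5, all lists shortened to the shortest, 50% coverage of a region, a window widened by 100 kb on each side, unscaled folds, tags over background, the summit of highest −log10 q, the replicate number as a block, and leaving out each library. The members and lists were chosen with earlier results of these data known. No hg19 annotation was used, so exons, other pathway genes and cell markers were not analysed here. Software was matplotlib 3.10.9, SciPy 1.17.1, pandas 2.3.3 and numpy 2.4.6 under Python 3.11.15.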

Additional observations from a re-analysis of the deposited data

How the results depend on the processing

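Short lists held few locus regions, and 2 libraries a group allow no p below 0.333. With a −log10 q of at least 5, and also with the window widened by 100 kb, siMena against siControl had 1 lost region in place of 0. With all lists shortened to the shortest, siControl against untreated had 0 lost and a difference of 0 in regions listed, and that difference turned to 0.5 for siMena minus siControl and to 0.75 for both knockdowns minus both controls. The widened window gave 0 for siMena11a minus siControl.

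At the JAK2 start, the unscaled log2 fold gave -0.0042 for siMena11a minus siControl, -0.26 for siMena minus siControl, -0.31 for siControl minus untreated, 0.26 for siMena11a minus siMena and -0.29 for both knockdowns minus both controls, each opposite to the relative fold. Tags over the genome-wide background gave -0.67, -1.18, 0.80 and -0.86 for the last 4 of these, again opposite. The cause was not tested.

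Leaving out 1 library moved most counts, and no alternative has a genome-wide share. Gained regions ran from 0 to 5 for siMena11a against siControl and from 0 to 7 for siMena11a against siMena, each highest without siMena11a replicate 2. Lost regions ran from 0 to 3 for siMena11a against siControl (3 without siMena11a replicate 1), from 0 to 3 for siMena against siControl (3 without siMena replicate 1, 2 without siControl replicate 2), and from 1 to 6 for siControl against untreated (6 without untreated replicate 2, 4 without siControl replicate 1, 3 without untreated replicate 1). The difference in regions listed ran from -5.5 to 7.5 for siMena11a minus siControl (negative without siMena11a replicate 1 and without siControl replicate 2), from -5.5 to 0.5 for siMena minus siControl (0.5 without siMena replicate 2, 0 without siControl replicate 1), and from -3 to 10 for siMena11a minus siMena (negative without siMena11a replicate 1). It stayed negative for siControl minus untreated (-8.5 to -3.5) and for both knockdowns minus both controls (-6.5 to -2.17). The JAK2 difference ran from -0.020 to 0.26 and from -0.012 to 0.27 for siMena11a and siMena minus siControl (both negative without siControl replicate 2), from -0.095 to 0.19 for siControl minus untreated (negative without siControl replicate 1 or untreated replicate 1), from -0.11 to 0.095 for siMena11a minus siMena (positive without siMena11a replicate 1 or siMena replicate 2), and from 0.11 to 0.20 for both knockdowns minus both controls.

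With the replicate number as a block the differences are the same by construction, and the smallest p of the design is 0.5 for 2 libraries against 2 and 0.0556 for 4 against 4, above 0.05 in any case. For regions listed the block p was 1, 0.5, 0.5 and 1 for the 4 comparisons of 2 groups, in the order above, and 0.278 for both knockdowns minus both controls, and for JAK2 it was 1 in those 4 and 0.222, with exact permutation throughout. Over the 501 regions listed by all libraries, the replicates of the 2 groups deviated from their group means together, with a Pearson r across regions of 0.63, 0.54, 0.29 and 0.59. The labels do not say that a number marks a shared batch, so the numbers were not taken to pair the libraries.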
